A study of Mus musculus with 12 samples.

Results

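The 10 genes described here make up the core of the MHC class I presentation pathway: the heavy chains H2-K1 and H2-D1, the light chain B2m, the peptide transporter Tap1 and Tap2, the loading factor Tapbp, the immunoproteasome subunits Psmb8, Psmb9 and Psmb10, and the regulator Nlrc5. They were chosen by symbol and are 10 of the 27998 genes listed for each of 12 single-cell RNA libraries of mouse mammary gland, and all 10 had reads in the fibroblasts of every library. Their levels were read in 4 fibroblast subsets, in the other cell types and in every library, over the hormone and flame retardant groups of the study.

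MHC class I molecules show short peptides from inside the cell to CD8 T cells, and nearly all nucleated cells carry them. The immunoproteasome cuts proteins into peptides, Tap1 and Tap2 pump these into the endoplasmic reticulum, tapasin holds the transporter and the empty heavy chain together, and the heavy chain leaves for the cell surface with B2m and its peptide. Interferons raise most of these genes together, and Nlrc5 is the transactivator that drives the class I promoters without binding DNA itself.

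All mice were C57BL/6J females of 43 weeks, and each of the 12 groups gave 1 library of dissociated mammary cells; how many animals went into a library is not given in the sources used here. Every group except Intact had received 4-vinylcyclohexene diepoxide (VCD, 160 mg/kg/day by intraperitoneal injection for 15 days), which depletes ovarian follicles and serves as a model of menopause. Of these groups, VCD_Vehicle, VCD_Low_PBDE and VCD_High_PBDE had no hormone. VCD_E2, VCD_Low_E2 and VCD_High_PBDE_E2 had estradiol (E2, 1 µg per animal per day, 1 week), while VCD_E2_P4, VCD_Low_E2_P4 and VCD_High_PBDE_E2_P4 had E2 with progesterone (P4, 1 mg per animal per day). PBDE, a mixture of polybrominated diphenyl ether flame retardants, was given in food either at a low dose for 20 weeks, from 100 days after the onset of VCD, or at a high dose for 1 week, so that dose and duration cannot be told apart. The non-PBDE groups had matched food with DMSO, and sesame oil was the vehicle of the injections. VCD_E2_ICI had E2 and a single injection of the estrogen receptor antagonist ICI (5 mg per animal), and VCD_Vehicle_NormEnv was a vehicle group kept in ordinary housing, where the labels name plastic cages as a possible source of PBDE. With 1 library per group, the 3 PBDE levels stood in as replicates of a hormone level in all tests of hormone, and p-values measure only the spread between these libraries.

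The libraries held 2497 to 10006 barcodes and 41737881 to 109224969 UMIs, and 46257 of 58620 barcodes passed the limits on genes, UMIs and mitochondrial share. Among all barcodes, 740 sequences occurred in 2 or more libraries, and among those that passed 274 did. Marker gates gave 30878 fibroblasts (1401 to 4564 per library), of which 11455 fell in the subset marked by Dpp4 and Pi16, 6983 in that of Fabp4 and Lpl, 4147 in that of Tnc and Mfap4 and 4064 in that of Gdf10 and F3, while 4229 had no subset; 3124 fibroblasts lay within 0.1 SD of the margin that decides a subset. The first 5 libraries (Intact, VCD_Vehicle, VCD_E2, VCD_E2_P4 and VCD_Low_PBDE) carry another code in their file names than the other 7, and the meaning of that code is not given in the sources used here. Levels below are CPM, the UMIs of a gene per 1000000 UMIs summed over the cells of a population in a library. They come from 3′ tags and are not scaled by length, so levels of different genes are not compared with each other. H2-K1 and H2-D1 belong to a family of related heavy chain genes; whether reads were shared between members in the counting was not tested, and their values are uncertain in that respect.

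Upstream of these genes lie short elements that the literature on class I promoters names: a kappa B element, an interferon response element, and the X2 and Y boxes of the module through which Nlrc5 acts. RefSeq promoter sequences (GRCm38.p6) were found for 8 of the 10 genes. They are shown for the genes with the clearest arrangement of these motifs, and capitals mark the letter matches given after them. The stretches are H2-K1 at chr17:34000334-34000463 on the minus strand (130 to 1 bases before the downstream one of its annotated starts), H2-D1 at chr17:35262918-35263047 on the plus strand (176 to 47 bases before the start), B2m at chr2:122147537-122147646 on the plus strand (150 to 41 bases before the start) and Tap1 at chr17:34187331-34187555 on the plus strand. The last is the whole interval of 225 bases between the RefSeq starts of Tap1 and Psmb9, which lie head to head on opposite strands. All distances here are from RefSeq starts, and the GENCODE spans given further on differ from them.
H2-K1: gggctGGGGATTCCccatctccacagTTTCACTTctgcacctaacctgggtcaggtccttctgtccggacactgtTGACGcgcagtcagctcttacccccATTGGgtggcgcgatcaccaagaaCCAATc
H2-D1: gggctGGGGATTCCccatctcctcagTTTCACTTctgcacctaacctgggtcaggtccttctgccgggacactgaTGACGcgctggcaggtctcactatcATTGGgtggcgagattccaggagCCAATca
B2m: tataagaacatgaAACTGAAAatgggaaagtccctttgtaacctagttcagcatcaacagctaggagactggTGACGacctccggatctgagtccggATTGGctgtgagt
Tap1: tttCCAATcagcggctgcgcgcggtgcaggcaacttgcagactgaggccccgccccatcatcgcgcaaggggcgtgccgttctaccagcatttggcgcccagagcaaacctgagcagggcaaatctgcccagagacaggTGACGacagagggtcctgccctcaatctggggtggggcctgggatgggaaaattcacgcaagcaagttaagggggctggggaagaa

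The H2-K1 and H2-D1 stretches were identical at 106 of 130 positions without gaps (81.5%). Each held, in the same order, a match to the kappa B letters GGGNNTTCC, to the interferon response letters AANNGAAA (here on the other strand, TTTCNNTT), to the X2 core TGACG and to the Y box CCAAT, followed by a further Y box match, with the leading ones at 125, 104, 55 and 30 bases before the start in H2-K1 and at 171, 150, 101 and 76 in H2-D1. B2m held the interferon response letters at 137, the X2 core at 78 and the Y box letters at 53 bases before the start. The Tap1 stretch held the X2 core at 86 bases before its start and the Y box letters at 222, and both matches also lie before the RefSeq start of Psmb9. Each of these motifs was searched on both strands, and overlap between motifs was allowed. In 32851 RefSeq windows from 250 bases before to 50 after a start, the interferon response letters occurred in 23.9%, the X2 core in 20.8%, the Y box letters in 37.4% and the kappa B letters in 5.82%; among the 8 genes with a sequence they occurred in 3, 5, 6 and 2. A letter match describes the sequence and is no evidence that a factor binds there.

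By the GENCODE M21 annotation of GRCm38, 7 of the 10 genes lie in the MHC region of chromosome 17: Tapbp (33915899 to 33929292, plus strand), H2-K1 (33996017 to 34000347, minus), Psmb9 (34181987 to 34187764, minus), Tap1 (34187553 to 34197225, plus), Psmb8 (34197721 to 34201454, plus), Tap2 (34203527 to 34216321, plus) and H2-D1 (35262730 to 35267499, plus). B2m lies on chromosome 2 (122147686 to 122153083, plus). Psmb10 (105935735 to 105938444, minus) and Nlrc5 (94434356 to 94527272, plus) lie on chromosome 8. By these spans Psmb9 and Tap1 overlap at their starts, the Tap1 stretch printed above lies inside Psmb9, the H2-D1 stretch inside H2-D1, and the H2-K1 stretch in part inside H2-K1.

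Over the fibroblasts of all 12 libraries, the heavy chains stood at 1481 ± 165.5 (H2-D1; SD, n = 12) and 970.5 ± 122.5 CPM (H2-K1), and the light chain B2m at 1385 ± 198.5 CPM. Tapasin had 214.8 ± 11.16 CPM and was the steadiest of the 10, with libraries from 193.7 to 230.8. The immunoproteasome genes had 108.6 ± 17.23 (Psmb8), 79.33 ± 8.127 (Psmb10) and 38.13 ± 6.445 CPM (Psmb9). The transporter genes had 51.78 ± 4.398 (Tap2) and 33.39 ± 9.598 CPM (Tap1), and the Tap1 libraries ran from 22.3 to 48.47. Nlrc5 was sparse, at 4.101 ± 1.035 CPM. Averaged over the 10 genes after standardising each, VCD_High_PBDE was the lowest library at -1.51 SD and VCD_E2_P4 the highest at 0.92 SD. Outside the 10, the genes whose log2 CPM followed that average most closely over the 12 libraries, among 5469 genes with at least 20 CPM, were Gbp2, an interferon-induced GTPase (r = 0.91), S100a10 (0.906), Mien1 (0.899), Aldh18a1 (0.897) and Serpinb1a (0.896). These correlations describe 12 points that share library depth and cell makeup.

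The subsets differed in these genes, and the differences depended on the hormone state. In fits with library as a block, each subset was set against the mean of the other 3, and the call was an adjusted p under 0.05 by edgeR's quasi-likelihood test with Benjamini-Hochberg adjustment over all genes tested, as in all tests below. For log2 values from fits, ± gives the standard error of the fit. Pooled over the 12 libraries, 6 of which had E2 or E2 with P4, the Tnc Mfap4 subset was lower in all 10 (median log2 difference -0.58), against 29.5% of all genes called lower there. The Dpp4 Pi16 subset was higher in 8 of 10, against 35.8% of all genes, all but the heavy chains (H2-K1 at 0.19, H2-D1 at 0.00). The Fabp4 Lpl subset was higher in 4 of 10 (30.4%), namely H2-K1 (0.56 ± 0.13, adjusted p = 0.00021), H2-D1 (0.54), Nlrc5 (0.74 ± 0.16, adjusted p = 0.00012) and Tap2 (0.25), and the Gdf10 F3 subset in 2 of 10 (23.8%), Tap1 (0.27) and Psmb10 (0.22).

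Split by hormone state, a choice made after the data were seen, the same contrasts gave other pictures. In the 3 libraries without hormone, Tnc Mfap4 was lower in 1 gene, Psmb9 (-0.38 ± 0.08, adjusted p = 0.0017), against 15.7% of genes, and the median of the 10 was -0.07. Dpp4 Pi16 was then higher in 1, Psmb8 (0.26 ± 0.06, adjusted p = 0.003), against 28.1% of genes, and lower in 3 (27.5% of genes), H2-D1 (-0.54 ± 0.06, adjusted p = 1.7e-06), H2-K1 (-0.30 ± 0.07) and Tap1 (-0.22 ± 0.08). Fabp4 Lpl was higher in 6 (20.2% of genes), with H2-K1 and H2-D1 both at 0.70, and Gdf10 F3 was lower in 4 (7.89% of genes), with H2-K1 at -0.36. In the 6 libraries with hormone, Tnc Mfap4 was lower in all 10 (29.7% of genes), from -0.58 ± 0.08 for tapasin to -1.67 ± 0.13 for Psmb9 (adjusted p = 6.6e-10), and Dpp4 Pi16 was higher in all 10 (32.2% of genes), from 0.35 ± 0.08 for Tap2 to 0.98 ± 0.10 for Psmb9 (adjusted p = 2.3e-08). Without hormone, neither heavy chain was called in Tnc Mfap4 (H2-K1 at -0.05 and H2-D1 at 0.11).

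With hormone, the pathway moved in opposite directions per UMI in the Dpp4 Pi16 and the Tnc Mfap4 subsets. In Dpp4 Pi16 fibroblasts 8 of the 10 genes rose (5.95% of all genes did), by 1.3-fold (Psmb10) to 2.319-fold (Nlrc5), while in Tnc Mfap4 fibroblasts 7 of the 10 fell per UMI (16.4% of all genes), to between 0.4693 (H2-D1) and 0.6401 (Tapbp) of the level without hormone. The fall holds per UMI and not per cell: scaled by the number of cells, 6 of those 7 genes had values above 0, none past the test, in a subset whose cells held more UMIs with hormone. Of the 8 calls in Dpp4 Pi16, 3 were left without the VCD_Low_PBDE library. There 1.76% of all genes were called in either direction, against 11.4% with it, and the median of the 10 was 0.62 against 0.61. The Gdf10 F3 subset rose in 3 genes (2.32% of all genes), none of which was called without the VCD_Low_PBDE library, and the Fabp4 Lpl subset fell in 1 (3.79%). The contrast set the 6 libraries with E2, with or without P4, against the 3 without hormone, with PBDE level as a block.

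**Figure D1:**
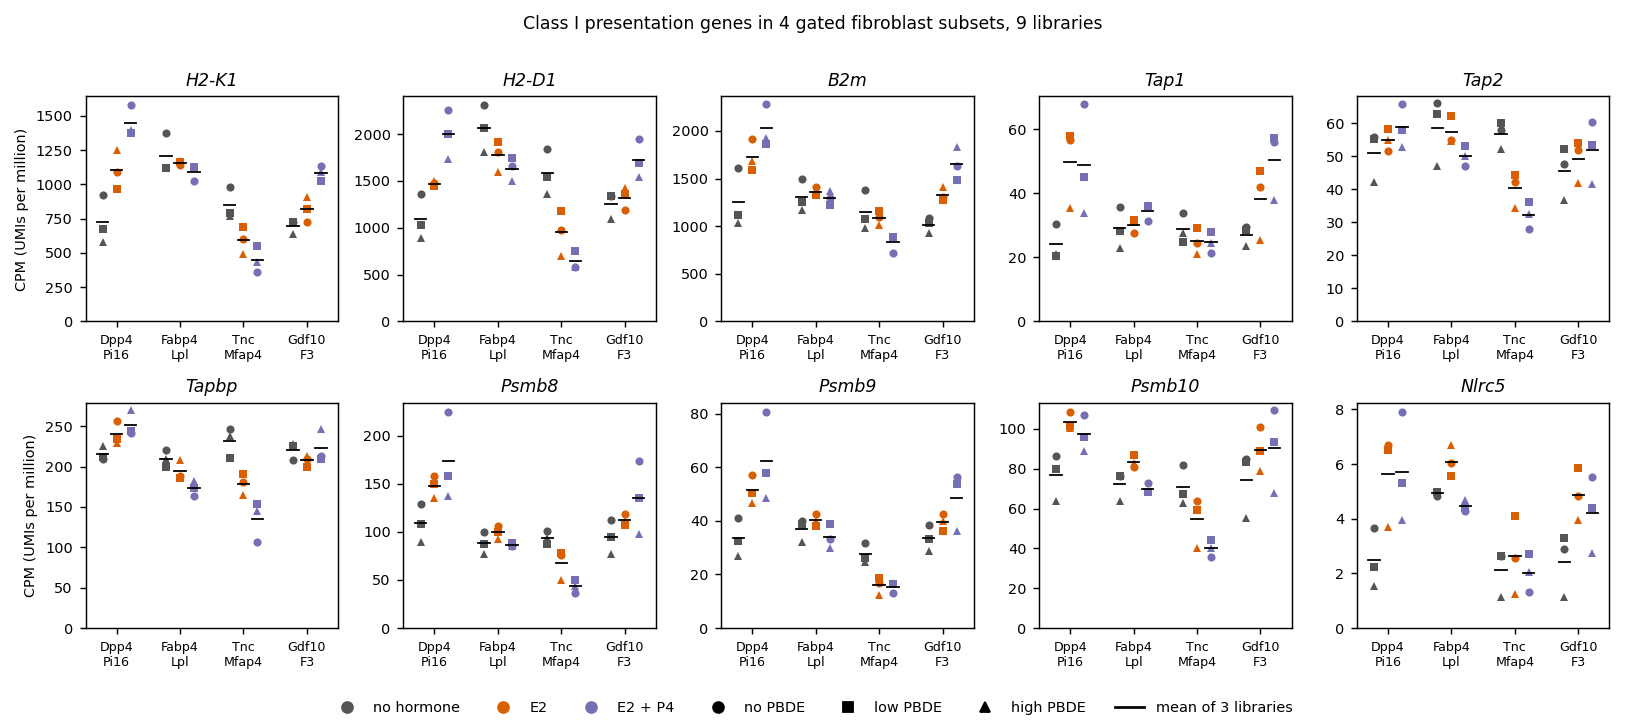
CPM of the 10 genes (y axes, each from 0) in the 4 fibroblast subsets, 1 point per library for 9 libraries; colour gives the hormone, shape the PBDE level and the black line the mean of 3 libraries. In Dpp4 Pi16 the grey points of H2-K1, Tap1 and Psmb9 lie below the coloured ones, and in Tnc Mfap4 the grey points of H2-K1, H2-D1 and Psmb9 lie above them per UMI, an order that did not hold per cell.

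Both heavy chains, which bind the peptide, rose in the Dpp4 Pi16 subset. H2-K1 stood at 920.9, 672.9 and 577.0 CPM in the vehicle, low PBDE and high PBDE libraries without hormone, and at 968.7 to 1582 CPM (median 1316) in the 6 with hormone. H2-D1 stood at 1361, 1028 and 885.4 CPM without hormone and at 1443 to 2257 CPM (median 1616) with it. In neither gene did the groups overlap, the vehicle library was the highest of those without hormone, and VCD_E2_P4 was the highest of those with it. The log2 fold change was 0.81 ± 0.13 for H2-K1 (1.749-fold; edgeR adjusted p = 0.012) and 0.65 ± 0.10 for H2-D1 (1.572-fold; adjusted p = 0.011). The light chain B2m, without which class I does not reach the surface, stood at 1615, 1122 and 1039 CPM without hormone and at 1588 to 2285 CPM (median 1891) with it. Only the vehicle library overlapped the hormone range, and the log2 fold change was 0.57 ± 0.09 (1.49-fold; adjusted p = 0.0085).

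Of the 2 chains of the peptide transporter, Tap1 passed the test in these cells and Tap2 did not. Tap1 stood at 30.6, 20.39 and 21.19 CPM without hormone and at 33.78 to 67.96 CPM (median 50.95) with it, a log2 fold change of 1.01 ± 0.14 (2.017-fold; adjusted p = 0.0064) without overlap. Tap2 stood at 55.95, 55.13 and 42.32 CPM without hormone and at 51.72 to 65.97 CPM (median 56.6) with it, and its 0.15 ± 0.10 did not pass (adjusted p = 0.37). The difference between these 2 changes was not tested. Tapasin (Tapbp), the bridge between transporter and heavy chain, stood at 208.8, 212.2 and 225.5 CPM without hormone and at 228.8 to 270.7 CPM (median 242.7) with it. Its libraries did not overlap, but the change was small at 0.17 ± 0.07 and did not pass (adjusted p = 0.15).

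The immunoproteasome genes, which replace the catalytic subunits of the constitutive proteasome, all rose in Dpp4 Pi16 fibroblasts and did not overlap. Psmb8 stood at 129.4, 107.8 and 89.63 CPM without hormone and at 135.3 to 225.0 CPM (median 154.1) with it (log2 0.54 ± 0.10, adjusted p = 0.015). Psmb9 stood at 41.0, 32.5 and 26.91 CPM without hormone and at 46.73 to 80.61 CPM (median 53.69) with it (log2 0.74 ± 0.09, 1.674-fold, adjusted p = 0.0046). Psmb10 stood at 86.4, 79.89 and 63.7 CPM without hormone and at 89.12 to 108.7 CPM (median 101.0) with it (log2 0.38 ± 0.08, adjusted p = 0.023). VCD_E2_P4 was again the highest library for Psmb8 and Psmb9. The regulator Nlrc5 stood at 3.644, 2.238 and 1.536 CPM without hormone and at 3.689 to 7.901 CPM (median 5.913) with it. Its groups did not overlap by a narrow margin, and the log2 fold change was 1.21 ± 0.16 (2.319-fold; adjusted p = 0.0053).

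Over all genes tested, 5.95% were called higher with hormone in this subset, and the median log2 fold change was 0.61 for the 10 genes and 0.00 for all genes. In CPM, 8 of the 10 were higher in every hormone library than in every library without (all but B2m and Tap2), against 7.78% of genes. Within each PBDE level, all 10 were higher with hormone at 3 of 3 levels, as were 24.4% of genes, with H2-K1 at 0.51, 0.78 and 1.2 and Tap1 at 1.02, 1.33 and 0.7 on the log2 scale at no, low and high PBDE. The no-PBDE libraries all carry the one file code and the high PBDE libraries the other, while the low PBDE value, and with it the count over 3 levels, compares libraries of both codes. Leaving out VCD_Low_PBDE left 3 of the 8 calls, namely Tap1, Psmb9 and Nlrc5, while 1.15% of all genes were called higher and the median of the 10 was 0.62 (0.21 to 1.14) in that fit. With the file code as a term 3 genes were called (1.09% of genes), at the same median and range; VCD_Low_PBDE is the 1 low PBDE library with its code among the 9, so this fit also sets it apart. Of the 38 other genes of the pathway, 7 were higher and 1 lower in the same contrast, 5 of the 7 among the 11 other heavy chains. The lowest p were those of the nonclassical heavy chains H2-T22 (log2 0.94 ± 0.07, adjusted p = 0.0013) and H2-T23 (1.02 ± 0.09, adjusted p = 0.002), and the 1 lower gene was the chromatin architecture factor Ctcf (-0.30 ± 0.07, adjusted p = 0.041). The median of the 38 was 0.02.

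Counted per cell in place of per UMI, a scaling added after the data were seen, the Dpp4 Pi16 subset again had 8 genes higher (9.83% of genes were), with a median log2 fold change of 0.80 against 0.18 for all genes. In UMIs per cell, H2-K1 ran from 8.895 to 17.18 without hormone and from 21.09 to 33.49 with it. Tap1 ran from 0.3267 to 0.5708 and from 0.5937 to 1.439, and Psmb9 from 0.4148 to 0.7649 and from 0.7851 to 1.707. These 3 of 10 did not overlap, against 6.9% of genes. The median UMIs per cell of the libraries were 15351.5 to 18965 without hormone and 17295 to 23427 with it. Of the markers that define the subset, Smpd3 fell by 0.93 and Efhd1 fell by 0.51 on the log2 scale with hormone, and their part in the result was not tested. The summed level of 8 immune cell markers in these fibroblasts, a measure of free RNA, was 25.79 to 32.27 CPM without hormone and 21.81 to 52.44 CPM with it, compared with 29760 to 46470 CPM in macrophages, and none of the 5 to 7 of them that passed the filter on low counts was called in any of the 4 subsets. In all fibroblasts together, 1 of them, C1qb, was called higher (log2 0.87, adjusted p = 0.047). The 7 markers tested in Dpp4 Pi16 had log2 values from 0.06 (Laptm5) to 0.91 (C1qb), with C1qa at 0.76 and Cd74 at 0.22. Their part in the result was not tested.

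To see how the change was spread over cells, each cell was thinned to 5000 UMIs, which left out 25 to 27 cells per library without hormone and 9 to 292 with it in the Dpp4 Pi16 subset. The UMIs of the 10 genes were summed per cell. In Dpp4 Pi16 cells the median sum was 21, 16 and 14 in the vehicle, low PBDE and high PBDE libraries without hormone and 22 to 30 (median 23.5) in the libraries with it. The lower deciles were 8 to 12 and 12 to 15, and the upper deciles 22 to 33 and 34.6 to 58. The medians and the upper deciles did not overlap between the groups, and the lower deciles met at 12. The share of thinned cells with a UMI was 9.259% to 14.24% without hormone and 15.09% to 24.48% with it for Tap1, 35.08% to 46.26% and 48.0% to 60.92% for Psmb8, and 11.86% to 17.91% and 19.11% to 30.98% for Psmb9. Nlrc5 was found in 0.6803% to 1.909% and 1.185% to 3.439% of cells, ranges that overlap.

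**Figure D2:**
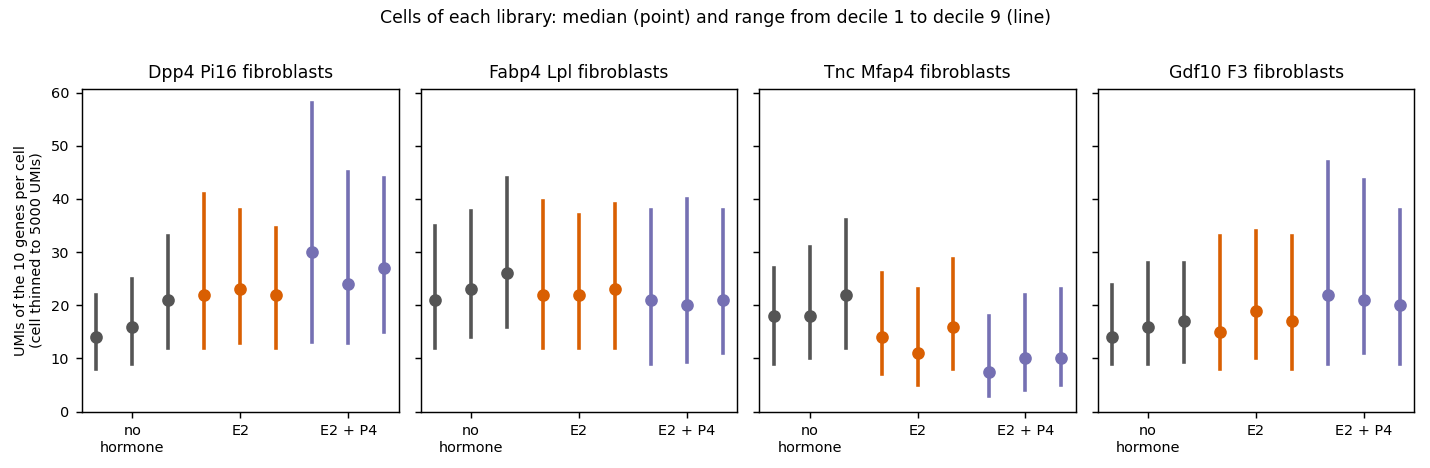
UMIs of the 10 genes per cell after thinning to 5000 UMIs (y axis from 0) in each of 9 libraries by hormone group; points are medians and lines run from the lower to the upper decile of cells. In Dpp4 Pi16 the medians were 14 to 21 without hormone and 22 to 30 with it, and in Tnc Mfap4 18 to 22 and 7.5 to 16. At equal depth these values are per UMI.

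In the Tnc Mfap4 subset both heavy chains fell per UMI, H2-D1 furthest of the 10 genes. H2-K1 stood at 978.0, 791.3 and 770.8 CPM in the vehicle, low PBDE and high PBDE libraries without hormone and at 358.6 to 691.4 CPM (median 521.0) with it. H2-D1 stood at 1837, 1542 and 1360 CPM without hormone and at 580.3 to 1183 CPM (median 726.6) with it. The groups did not overlap in either gene, and VCD_Low_E2 was the nearest of the hormone libraries to those without. The log2 fold change was -0.79 ± 0.13 for H2-K1 (0.5788-fold; edgeR adjusted p = 0.001) and -1.09 ± 0.11 for H2-D1 (0.4693-fold; adjusted p = 7.4e-05). B2m stood at 1382, 1076 and 986.5 CPM without hormone and at 720.7 to 1155 CPM (median 949.0) with it, and its -0.33 ± 0.12 did not pass (adjusted p = 0.053). So the chain shared by all class I molecules overlapped between the groups where both heavy chains did not.

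Of the transporter chains, Tap2 passed the test here and Tap1 did not. Tap2 stood at 58.02, 60.2 and 52.25 CPM without hormone and at 28.08 to 44.43 CPM (median 35.33) with it (log2 -0.73 ± 0.10, adjusted p = 0.00043), without overlap. Tap1 stood at 33.98, 24.85 and 27.53 CPM and at 21.19 to 29.31 CPM (median 24.57), and its -0.28 ± 0.15 did not pass (adjusted p = 0.16). Tapasin stood at 246.3, 210.1 and 238.2 CPM without hormone and at 106.7 to 190.6 CPM (median 158.9) with it (log2 -0.64 ± 0.12, adjusted p = 0.0023). Its hormone libraries all lay below those without.

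All 3 immunoproteasome genes fell per UMI in the Tnc Mfap4 subset. Psmb8 stood at 100.6, 87.47 and 93.26 CPM without hormone and at 36.38 to 77.65 CPM (median 49.98) with it (log2 -0.86 ± 0.14, adjusted p = 0.00091). Psmb9 stood at 31.83, 26.06 and 24.72 CPM without hormone and at 12.35 to 18.85 CPM (median 16.58) with it (log2 -0.89 ± 0.15, adjusted p = 0.0014). Neither overlapped. Psmb10 stood at 81.72, 67.27 and 62.92 CPM without hormone and at 35.84 to 63.91 CPM (median 42.12) with it (log2 -0.67 ± 0.13, adjusted p = 0.0029), with an overlap at the high PBDE library. Nlrc5 was too sparse here to place, at 2.652, 2.626 and 1.124 CPM without hormone and 1.263 to 4.107 CPM (median 2.312) with it (log2 -0.07 ± 0.39, adjusted p = 0.91).

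The 7 calls compare with 16.4% of all genes called lower in this contrast, and the median log2 fold change was -0.70 for the 10 genes and -0.02 for all. In CPM 6 of the 10 were lower in every hormone library, against 10.4% of genes. Within the PBDE levels, 8 genes were lower at 3 of 3 levels, as were 25.3% of genes, with H2-D1 at -1.29, -0.70 and -1.09 at no, low and high PBDE, while Tap1 was at -0.56, 0.20 and -0.28 and Nlrc5 at -0.51, 0.32 and 0.28. Among the 38 other genes of the pathway, 2 were higher, the constitutive proteasome subunit Psmb5 (log2 0.62) and the proteasome activator Psme3 (0.39), and 13 lower, led by the heavy chain H2-Q4 (-1.72 ± 0.20, adjusted p = 0.00013) and H2-T23 (-0.53).

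The cells of this subset held more RNA with hormone: their median UMIs were 8664.5 to 10266.5 per library without hormone (169 to 606 cells) and 16571 to 27509 with it (194 to 490 cells). Per cell, the median log2 change of all genes was 1.03 and 80.6% of genes were called, so values per cell are read against that shift. The 10 genes had a median of 0.36 per cell. B2m (0.73, adjusted p = 0.0055) and Tap1 (0.78, adjusted p = 0.0046) were called higher, and H2-K1 (0.27), Tap2 (0.33), Tapbp (0.41), Psmb8 (0.19), Psmb9 (0.17), Psmb10 (0.39), Nlrc5 (0.96) and H2-D1 (-0.03) were not called. In UMIs per cell, B2m ran from 10.39 to 13.75 without hormone and from 14.06 to 22.15 with it, and Tap1 from 0.277 to 0.3383 and from 0.4206 to 0.6195. These 2 of 10 were higher in every hormone library, against 71.2% of genes, and the other 8 overlapped; H2-D1 stood at 18.29, 17.2 and 14.32 and at 12.05 to 22.24. The genes used to gate the subset moved too, with Postn at 3.05 and Mfap4 at 1.23 on the log2 scale and Penk at -1.89, Enpp2 at -1.60, Scg3 at -0.97 and Tnc at -0.82. Whether the same cells changed or other cells entered the gate cannot be told apart.

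Thinned to equal depth, which left out 20 to 65 cells per library without hormone and 4 to 158 with it, Tnc Mfap4 cells had median sums of the 10 genes of 18 to 22 without hormone and 7.5 to 16 with it. Their lower deciles were 9 to 12 and 3 to 8, and their upper deciles 27 to 36 and 18 to 28.7. The share of cells with a UMI of H2-K1 was 90.48% to 95.75% without hormone and 69.48% to 91.24% with it, that of Tap2 26.17% to 29.32% and 9.677% to 22.34%, and that of Psmb9 12.75% to 14.54% and 6.169% to 7.831%. At equal depth these values are per UMI. Before thinning, H2-K1 had 8.118 to 9.736 UMIs per cell without hormone and 8.751 to 13.0 with it.

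**Figure D3:**
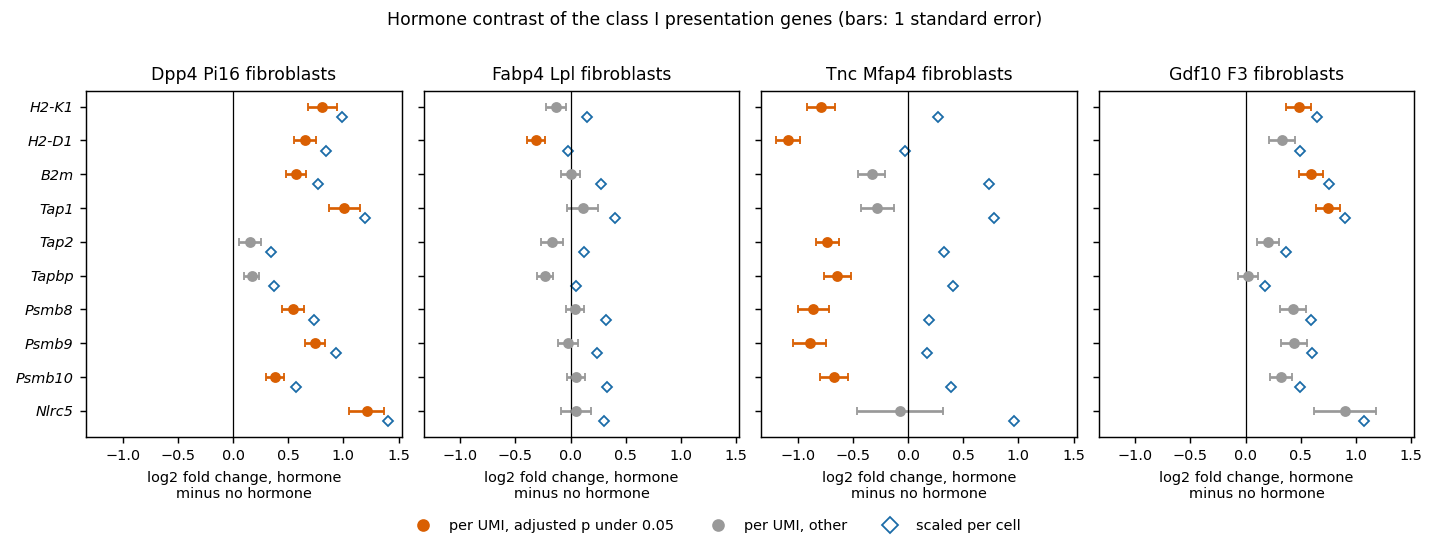
Log2 fold change (x axis) of hormone against no hormone for each of the 10 genes in 4 fibroblast subsets; filled points are per UMI with bars of 1 standard error, orange where the adjusted p was under 0.05, and open blue diamonds are the same contrast scaled per cell. In Dpp4 Pi16 8 filled points are orange to the right of 0, and in Tnc Mfap4 7 are orange to the left while their diamonds lie near or right of 0.

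The Gdf10 F3 subset had calls in the same direction as Dpp4 Pi16, but fewer of them. H2-K1 stood at 727.2, 726.1 and 641.6 CPM without hormone and at 729.6 to 1138 CPM (median 966.0) with it (log2 0.48 ± 0.11, adjusted p = 0.046). B2m stood at 1085, 1032 and 932.6 CPM and at 1278 to 1836 CPM (median 1448) (log2 0.59 ± 0.11, adjusted p = 0.021). Both were higher in every hormone library, as were 3.52% of genes, although for H2-K1 the gap was under 3 CPM. Tap1 stood at 29.43, 28.52 and 23.47 CPM and at 25.39 to 57.41 CPM (median 44.59), which overlap, and was called (log2 0.75 ± 0.11, adjusted p = 0.007). These 3 of 10 compare with 2.32% of all genes called higher, and without VCD_Low_PBDE none of the 3 passed, where 0.201% of genes were called higher; the median of the 10 was 0.46 (0.09 to 1.11) there and 0.44 with it. The others had values from 0.02 (Tapbp) to 0.90 ± 0.28 (Nlrc5, adjusted p = 0.12). Per cell Tap1 alone was called (2.8% of all genes were in either direction), with a median of 0.59 for the 10 genes and 0.15 for all. With the file code as a term 0 were called (0.307% of all genes), at a median of 0.47. The summed level of the 8 immune cell markers in this subset was 22.79 to 23.47 CPM without hormone and 24.2 to 78.9 CPM with it, without overlap. The 5 markers tested had log2 values of 0.72 (C1qb, Lyz2 and Tyrobp), 0.81 (Cd74) and 0.99 (Laptm5), none called, against the median of 0.44 for the 10 genes, and their part in the result was not tested. Of the 38 other pathway genes 6 were higher and none lower, among them H2-T22 (0.75) and the heavy chain H2-Q6 (1.28).

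In the Fabp4 Lpl subset 1 gene was called, against 3.79% of all genes called lower. H2-D1 stood at 2315, 2066 and 1812 CPM without hormone and at 1494 to 1917 CPM (median 1700) with it (log2 -0.31 ± 0.08, adjusted p = 0.036), with an overlap at the high PBDE library, and the call was lost with stricter gates (-0.27) and per cell (-0.02) and held in 3 of 9 fits that left out 1 library (-0.36 to -0.23). The H2-D1 call was also lost with the file code as a term and without the PBDE block. The other 9 ran from -0.23 to 0.11, and the median sum of the 10 genes per thinned cell was 21 to 26 without hormone and 20 to 23 with it. Of the other pathway genes 1 was higher and 3 were lower, among the latter the enhanceosome subunits Nfyb (-0.37) and Rfxap (-0.44).

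The difference between subsets was itself tested, as the hormone contrast of a subset minus the mean of the other 3 over 36 sums. It was higher in Dpp4 Pi16 for all 10 genes (median 0.76), against 8.64% of genes, from 0.38 ± 0.10 for Tap2 (edgeR adjusted p = 0.0087) to 1.02 ± 0.12 for H2-D1 (adjusted p = 2.9e-06). H2-K1 had 0.97 ± 0.13 (adjusted p = 1.9e-05), Psmb9 0.91 ± 0.12 (adjusted p = 1.9e-05), Tap1 0.84 ± 0.16 and Nlrc5 0.95 ± 0.29 (adjusted p = 0.023). It was lower in Tnc Mfap4 for 9 genes (median -0.90), against 14.5% of genes, led by H2-D1 at -1.31 ± 0.12 (adjusted p = 1.7e-08), Psmb9 at -1.27, Psmb8 at -1.19 and H2-K1 at -1.17. Nlrc5 at -0.79 ± 0.42 did not pass (adjusted p = 0.17). It was higher in Gdf10 F3 for 6 genes (0.46 to 0.57), against 2.23% of genes, with a median of 0.50 over the 10. It was higher for 1 without VCD_High_PBDE (0.83% of genes, median 0.45), 1 without VCD_Vehicle (1.04%, 0.42) and 2 without VCD_Low_PBDE (0.592%, 0.56). With the Tnc Mfap4 gate built without Postn, Penk and Enpp2 it was higher for 3 (1.43%, 0.46). These medians were close to that of all libraries. Per cell it was higher for 0, with a median of 0.15 for the 10 genes and -0.35 for all genes. For Fabp4 Lpl edgeR called 0 genes where 3.04% of all genes were called in either direction, with 5 under an unadjusted p of 0.05 and 0 by DESeq2. Per cell, where 29.3% of genes were called in either direction in Dpp4 Pi16 and 71.0% in Tnc Mfap4, 3 of the 10 genes were higher in Dpp4 Pi16 (1.92% of genes were) and 3 lower in Tnc Mfap4 (1.68% were), namely H2-K1 (-0.33), H2-D1 (-0.47) and Psmb9 (-0.40). Also per cell, 3 were lower in Fabp4 Lpl (1.32% of genes) and 0 were called in Gdf10 F3 (0.333% of genes were called higher). The medians of the 10 per cell were 0.43 in Dpp4 Pi16, -0.05 in Tnc Mfap4 and -0.39 in Fabp4 Lpl. Those of all genes were -0.31, 0.84 and -0.19. Among the other pathway genes, 11 were higher and 2 lower in Dpp4 Pi16, with H2-T23 at 0.99 and H2-T22 at 0.58, and 4 were higher and 15 lower in Tnc Mfap4. Since each subset is part of the mean the others are set against, a fall in 1 subset raises the values of the others. In the hormone contrast of the subset itself, H2-D1, Tap2, Psmb8 and Psmb9 were not called in Gdf10 F3. Nor were Tap2 and Tapbp in Dpp4 Pi16.

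Over all fibroblasts the changes that were opposite per UMI lay in 1 sum, and 5 of the 10 genes were called higher, against 10.1% of genes: Tap1 (log2 0.57 ± 0.10, adjusted p = 0.0095), Nlrc5 (0.55 ± 0.10, adjusted p = 0.014), B2m (0.30 ± 0.08, adjusted p = 0.042), Psmb9 (0.29 ± 0.05, adjusted p = 0.0093) and Psmb8 (0.25 ± 0.06, adjusted p = 0.029). The CPM ranges with and without hormone overlapped for all 10 genes, and 2 calls were left without VCD_Low_PBDE (3.32% of genes), 1 with the file code as a term (3.07%) and 0 without the PBDE block (8.12%). The median of the 10 was 0.23 with all libraries and the block, and 0.22 in each of these 3 fits. In UMIs per cell, H2-K1, B2m, Tap1, Psmb8, Psmb9 and Nlrc5 were higher in every hormone library, and the other 4 genes overlapped. No share of all genes is given for that count. The median UMIs per fibroblast were 14310.5 to 16626.5 per library without hormone and 16062.5 to 22116 with it. Of the other pathway genes, 6 were higher, among them H2-T22 (0.63), and 7 lower, among them Nfyb (-0.30) and Ctcf (-0.29). Of all genes, 19.0% were called in either direction.

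Interferon is the best known inducer of the pathway, so the cells were also split by 10 interferon-induced genes that are not members (Ifit1, Ifit3, Isg15, Irf7, Oasl2, Rtp4, Usp18, Ifi44, Rsad2 and Mx1). Of 28454 fibroblasts thinned to 5000 UMIs, 12044 held none of them, 12894 held 1 to 3, and 3516 held 4 or more; 2223 cells lay just under that limit with 3 and 1449 just at it with 4. Cells with 4 or more made up 2.92% to 10.28% of Dpp4 Pi16 cells without hormone and 16.15% to 36.07% with it, and 4.695% to 8.814% and 17.16% to 31.09% of Gdf10 F3 cells. The shares were 1.619% to 4.265% and 4.186% to 8.213% in Fabp4 Lpl, and 2.506% to 5.36% and 2.017% to 7.107% in Tnc Mfap4. In the hormone contrast 6 of the 10 interferon-induced genes were higher in Dpp4 Pi16 (5.95% of genes; Irf7 at 2.33 ± 0.16), 8 in Gdf10 F3 (2.32%) and 5 in Fabp4 Lpl (5.86%), while in Tnc Mfap4 none was higher (17.2%) and Rtp4 was lower (-0.79; 16.4%).

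Between the 2 classes of cells in the same library, all 10 genes were higher in the cells with 4 or more interferon-induced genes, in Dpp4 Pi16 (12 libraries; 4.84% of genes called higher), Fabp4 Lpl (7; 2.79%), Gdf10 F3 (10; 6.93%) and all fibroblasts (12; 21.0%). In Dpp4 Pi16, Tap1 ran from 54.39 to 108.4 CPM (median 62.95) in these cells and from 13.86 to 26.58 CPM (median 18.6) in cells with none, higher in 12 of 12 libraries and without overlap (log2 1.83 ± 0.09, edgeR adjusted p = 1.4e-12). Nlrc5 ran from 2.878 to 18.54 CPM (median 9.96) and from 0.5792 to 3.57 CPM (median 1.864), higher in 11 of 12 libraries (log2 2.38 ± 0.23, adjusted p = 1.3e-07). The immunoproteasome genes followed with 0.99 (Psmb8), 0.90 (Psmb9) and 0.69 (Psmb10), then H2-K1 (0.64 ± 0.09), B2m (0.57), H2-D1 (0.52) and Tap2 (0.43). Tapasin moved least, at 0.25 ± 0.04 (adjusted p = 0.00044). The median of the 10 was 0.66 in Dpp4 Pi16, 0.69 in Fabp4 Lpl and 0.99 in Gdf10 F3. Of the other pathway genes 12 were higher and 1 lower in Dpp4 Pi16, 9 and 0 in Fabp4 Lpl, and 12 and 0 in Gdf10 F3.

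**Figure D4:**
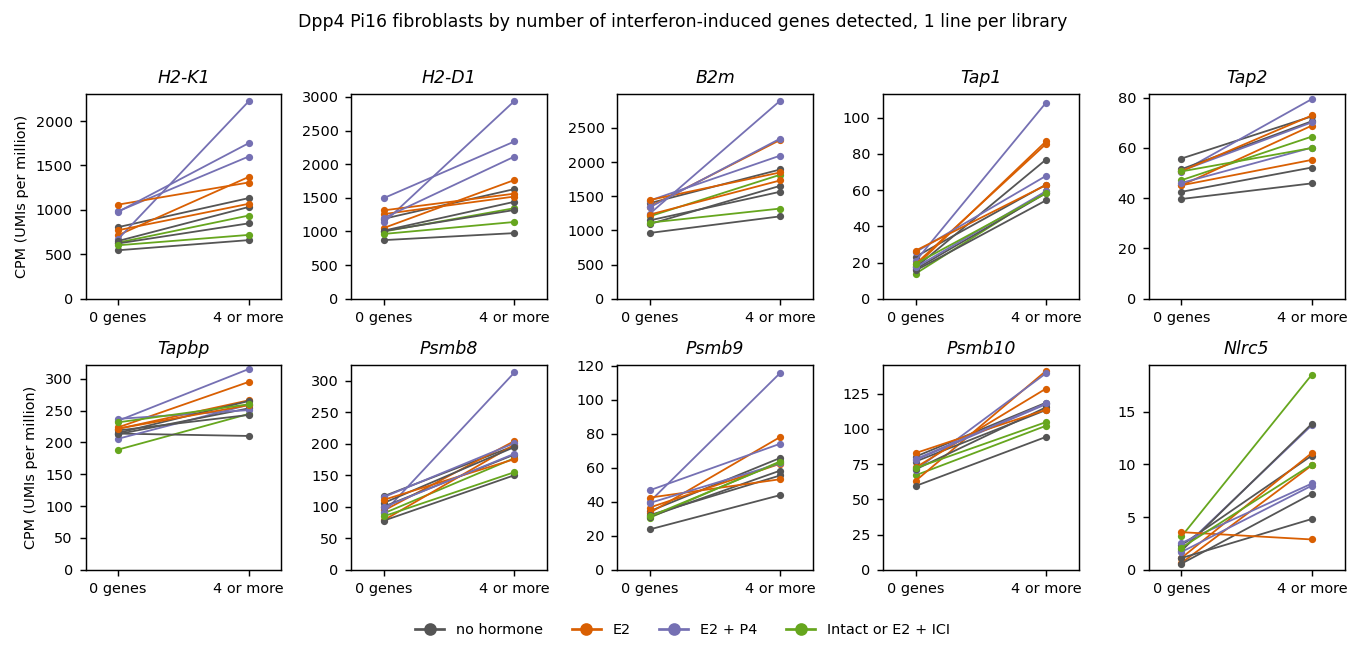
CPM of the 10 genes (y axes, each from 0) in Dpp4 Pi16 fibroblasts with 0 or with 4 or more of 10 interferon-induced genes detected after thinning, 1 line per library for 12 libraries, coloured by hormone. The Tap1 lines rise from 13.86 to 26.58 CPM up to 54.39 to 108.4 CPM, and 1 of 12 Nlrc5 lines and 1 of 12 Tapbp lines fall.

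Within cells that held none of the interferon-induced genes, a subset of cells chosen after the data were seen, edgeR called 0 of the 9 members tested in Dpp4 Pi16 with hormone, where 2 had an unadjusted p under 0.05. Their log2 fold changes there ran from -0.01 to 0.42, and 1.45% of 10195 genes were called in these cells. In Dpp4 Pi16 cells with 4 or more, 1 was called higher (0.64% of genes were), H2-D1 (0.58, adjusted p = 0.042), and H2-K1 had 0.71 (adjusted p = 0.053). In Tnc Mfap4 cells with none, 8 of the 9 members tested were lower per UMI, against 15.2% of genes. No fit per cell was run in these cells. These sums hold fewer cells than the whole subsets, and the part of that in the counts was not tested.

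Adding P4 to E2 gave no edgeR call among the 10 genes in the whole subsets or in all fibroblasts. In the contrast of E2 with P4 against E2 alone (3 libraries each), edgeR called 0 in Dpp4 Pi16 (5 under an unadjusted p of 0.05, 1 by DESeq2; 0.116% of all genes called), 0 in Gdf10 F3 (6 and 0; 0.0%), 0 in Tnc Mfap4 (7 and 2; 1.68%), 0 in Fabp4 Lpl (5 and 0; 0.593%) and 0 in all fibroblasts (3 and 0; 0.0342%). These shares are of edgeR's adjusted calls, and no share of all genes is given for the unadjusted or DESeq2 counts. The medians of the 10 were 0.24 in Dpp4 Pi16, 0.33 in Gdf10 F3, -0.39 in Tnc Mfap4 and -0.21 in Fabp4 Lpl. The nearest to a call were H2-D1 (-0.55 ± 0.14, adjusted p = 0.078) and Psmb8 (-0.63 ± 0.16, adjusted p = 0.083) in Tnc Mfap4. In Tnc Mfap4 cells with none of the interferon-induced genes, edgeR called 2 of the 9 members tested, with 7 under an unadjusted p of 0.05. That split of cells was chosen after the data were seen, and the share of all genes is not given for it.

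PBDE was tested as each level against none over 3 hormone states. In all fibroblasts, at the low dose edgeR called 0 of the 10 (3 under an unadjusted p of 0.05, 0 by DESeq2; 0.0% of all genes), with a median of -0.15. At the high dose 2 were called lower (8 under an unadjusted p of 0.05, 6 by DESeq2), against 0.437% of genes called in either direction. The shares in this paragraph are of edgeR's adjusted calls, and none is given for the unadjusted or DESeq2 counts. Psmb8 stood at 110.6, 126.3 and 145.3 CPM without PBDE and at 83.11, 98.19 and 104.6 CPM at the high dose in the vehicle, E2, and E2 with P4 libraries (log2 -0.46 ± 0.07, adjusted p = 0.05, rounded from just under the limit). Psmb9 stood at 38.35, 45.34 and 51.77 CPM and at 28.47, 34.73 and 37.7 CPM (log2 -0.47 ± 0.06, adjusted p = 0.037). At each hormone state the high dose library was the lower one. Tap1 (-0.60) and Nlrc5 (-0.62) did not pass, and the median of the 10 was -0.35. By population, edgeR called 0 of the 10 at the high dose in Dpp4 Pi16 (7 under an unadjusted p of 0.05, 5 by DESeq2; 0.193% of all genes called), Fabp4 Lpl (3 and 0; 0.387%), Tnc Mfap4 (2 and 0; 0.068%), Gdf10 F3 (6 and 1; 0.147%), macrophages (4 and 0; 0.0782%) and T cells (0 and 0; 0.0403%). The medians of the 10 there were -0.35, -0.21, -0.20, -0.43, -0.31 and -0.10 in that order. At the low dose edgeR also called 0 in each of them, with 5 under an unadjusted p of 0.05 in Dpp4 Pi16 and 0 in the others, and 0 by DESeq2. The shares of all genes called at the low dose were 0.0% in Dpp4 Pi16 and macrophages, 0.00824% in Fabp4 Lpl, 0.0085% in Tnc Mfap4, 0.00863% in Gdf10 F3 and 0.0101% in T cells. The no-PBDE and high PBDE libraries carry different file codes, so PBDE and code cannot be told apart here.

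The 3 remaining groups have 1 library each and no counterpart at another PBDE level, so their values are given as ratios of CPM with exact 95% intervals that cover counting error only. In Dpp4 Pi16 the VCD_E2_ICI library was below the VCD_E2 library in 9 of 10 genes by such an interval, as it was in 23.7% of genes with at least 20 UMIs, with a median ratio of 0.629 against 0.972 for all genes. Tap1 had a ratio of 0.401 (0.346 to 0.463), B2m 0.601 (0.589 to 0.614), H2-K1 0.619 (0.602 to 0.637) and H2-D1 0.710 (0.695 to 0.727), while Tap2 had 0.974 (0.872 to 1.09). Its H2-K1 (676.8 CPM), H2-D1 (1046), B2m (1153) and Tap1 (22.7) lay within the range of the 3 libraries without hormone. In Tnc Mfap4 the same ratio was above 1 in 5 of the 10 (12.8% of genes), with Psmb9 at 2.03 (1.48 to 2.80), H2-D1 at 1.57 (1.50 to 1.64) and H2-K1 at 1.53 (1.45 to 1.62). Against VCD_Vehicle, also without PBDE, VCD_E2_ICI was below in 6 genes in Dpp4 Pi16 (median ratio 0.781) and in 7 in Tnc Mfap4 (0.832). It was above VCD_Vehicle in 1 gene and in 0, and the median ratios of all genes were 0.9965 and 0.9894. No share of all genes is given for these counts against VCD_Vehicle, so they are not read as a trait of the 10 genes. The Intact library, without VCD, was below VCD_Vehicle in 9 of the 10 in Tnc Mfap4 (10.7% of genes; H2-K1 0.701, H2-D1 0.668 and Psmb9 0.527) and in 6 in Dpp4 Pi16 (12.5% of genes), where Nlrc5 was above it at 1.55 (1.06 to 2.28). The 2 vehicle libraries, VCD_Vehicle_NormEnv and VCD_Vehicle, also differed by such intervals in 5 genes in Dpp4 Pi16 (26.5% of genes) and in 5 in Tnc Mfap4 (20.9%). VCD_E2_ICI carries another file code than VCD_E2 and VCD_Vehicle, and VCD_Vehicle_NormEnv another than VCD_Vehicle, so code and group cannot be told apart in these ratios.

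Per UMI, lymphocytes stood above fibroblasts in most of the pathway. T cells had 4093 ± 310.3 CPM of H2-K1 (SD, n = 12), 508.4 ± 93.03 of Psmb8 and 45.73 ± 5.579 of Nlrc5, whose libraries ran from 36.87 to 57.19. Against the fibroblasts of the same libraries, 9 genes were higher (37.2% of all genes were) and 1 lower (45.3%). Nlrc5 was higher by 3.33 ± 0.10 on the log2 scale (10.07-fold, edgeR adjusted p = 4e-17), Psmb8 by 2.07 and H2-K1 by 1.93 ± 0.05, and tapasin was lower by a log2 difference of -0.39 ± 0.06 (adjusted p = 5.3e-06). CD8 T cells had 9 higher and 1 lower (29.8% and 44.4% of genes), CD4 T cells 8 and 1 (30.7% and 46.0%), and natural killer and innate lymphoid cells 9 and 1 (28.5% and 45.4%), with Nlrc5 at 2.77 and H2-K1 at 1.89 in the last. The median UMIs per T cell, 5141 to 7515, were below those of fibroblasts, 14310.5 to 22116. In UMIs per cell, H2-K1 had 41.54 ± 5.833 in T cells and 16.9 ± 4.146 in fibroblasts, and tapasin 1.871 ± 0.3511 and 3.705 ± 0.5892 (SD, n = 12). Per cell the libraries of the T cells also lay above those of the fibroblasts for Psmb8 (3.591 to 7.5 against 1.188 to 3.227) and Nlrc5 (0.3654 to 0.5714 against 0.03666 to 0.1228). The other genes overlapped per cell, with B2m at 25.83 ± 4.78 in T cells and 24.3 ± 6.984 in fibroblasts, Psmb10 at 1.169 ± 0.3171 and 1.384 ± 0.3376, and Tap2 at 1.105 ± 0.2002 and 0.8954 ± 0.1665. The T cell sums also held myeloid markers: Lyz2 ran from 1145 to 2988 CPM and Cd74 from 4155 to 10180 CPM, against 3.955 to 17.66 and 13.12 to 38.72 CPM in fibroblasts and 9322 to 13860 and 11890 to 24870 CPM in macrophages. The part of these markers in the T cell values was not tested.

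Myeloid cells were also above fibroblasts per UMI in many of these genes. In macrophages 8 genes were higher than in fibroblasts (33.6% of genes were), with Nlrc5 at 1.68 ± 0.14, Tap1 at 1.34 and Psmb9 at 1.23, and Tap2 (-0.04) and Tapbp (0.01) did not pass. In conventional dendritic cells, from 5 libraries, 8 were higher (22.9% of genes), led by the immunoproteasome: Psmb9 at 359.8 ± 46.83 CPM (log2 3.04 ± 0.13, 8.197-fold), Psmb8 at 778.5 ± 107.6 CPM (2.64) and Tap1 (2.18), while B2m (-0.16) did not pass. Neutrophils, from 4 libraries, were higher in 5 (13.7% of genes) and lower in Psmb10 (-1.23 ± 0.35; 35.7% of genes), with H2-D1 at 4430 ± 556.1 CPM. Their median over all genes was -1.64, so a scale shift accompanies these values. The median UMIs per neutrophil were 2786.5 to 3276.5 per library, and those per fibroblast 14310.5 to 22116. In UMIs per cell, H2-D1 ran from 11.83 to 20.83 in neutrophils. In fibroblasts of the 9 libraries used for the hormone contrast it ran from 17.49 to 38.11. Luminal epithelial cells, from 3 libraries, were higher in Tap2 (1.30 ± 0.35), Psmb8 (1.04) and Psmb9 (0.82), against 16.6% of genes, and lower in Tapbp (-0.82) and Psmb10 (-1.06), against 24.7%. Their Tap2 stood at 248.5 CPM in VCD_E2 and 224.9 in VCD_Low_E2 but at 64.1 in VCD_E2_P4, where fibroblasts had 52.41 CPM, so the Tap2 value rests on 2 of the 3 libraries. Of the types too few for a test, B cells (204 cells pooled) had 3797 CPM of H2-K1, with 4808 and 2316 CPM in the 2 libraries of at least 20 such cells, endothelial cells (114) 1213, with 1737 and 898.6 in 2 such libraries, Schwann cells (53) 366.7 (exact Poisson 95% interval 297.3 to 447.3) and pericytes (43) 322.9 (229.6 to 441.5).

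**Figure D5:**
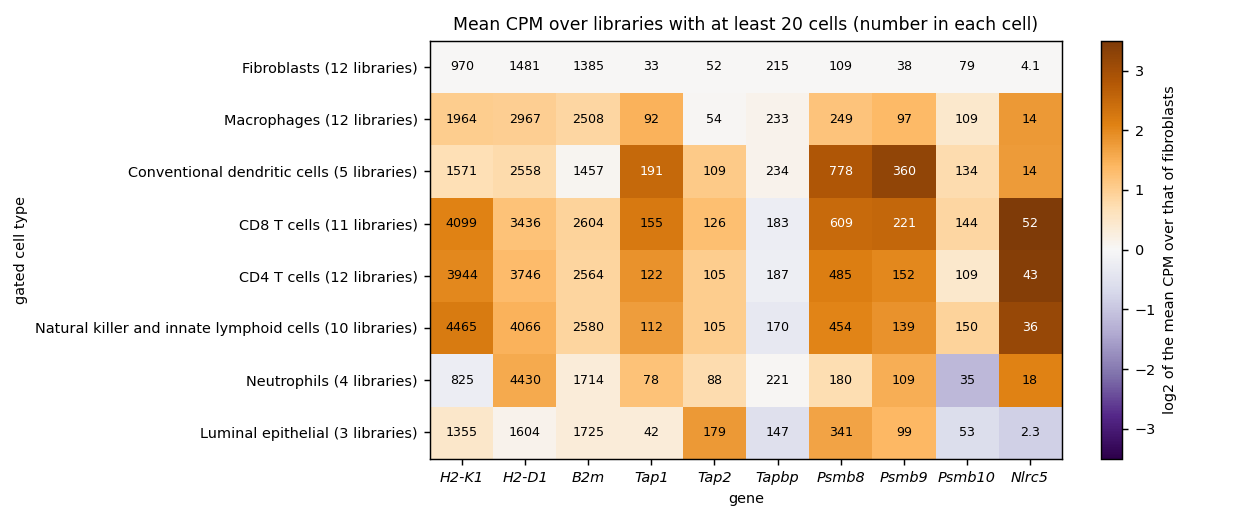
Mean CPM of the 10 genes (x axis, printed in each field) in gated cell types (y axis, with the number of libraries), coloured by the log2 ratio to all fibroblasts. The lymphocyte fields are darkest for Nlrc5, with 45.73 CPM in T cells against 4.101 in fibroblasts, and those of conventional dendritic cells for Psmb9 and Psmb8. The tests also rescale the sums by TMM, so a fitted value can differ from the colour.

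Hormone was also tested in the immune types with enough cells in the 9 libraries. In macrophages edgeR called 0 of the 10 genes, where it called 0.257% of all genes, and DESeq2 called 2, where it called 0.726%. With edgeR 6 were under an unadjusted p of 0.05, for which no share of all genes is given. The log2 fold changes ran from 0.01 to 0.70 with a median of 0.48. H2-K1 stood at 2063, 1305 and 1205 CPM in the vehicle, low PBDE and high PBDE macrophages without hormone and at 2179 to 2835 CPM (median 2310) with it. Tapasin stood at 198.7, 193.1 and 176.0 CPM and at 230.4 to 311.6 CPM (median 273.0). These 2 genes did not overlap between the groups, against 3.45% of genes higher in every hormone library, but missed the threshold, as did B2m with the lowest p (0.70 ± 0.13, adjusted p = 0.057). In UMIs per cell all 10 overlapped, with H2-K1 at 14.47 to 27.07 without hormone and 24.44 to 39.47 with it. In T cells edgeR called 0 (1 under an unadjusted p of 0.05, 0 by DESeq2), where 0.0% of all genes were called, and the values ran from 0.00 to 0.31. B2m, at 2092 to 2409 CPM without hormone and 2632 to 2854 CPM with it, and tapasin, at 165.4 to 169.2 and 179.0 to 215.9 CPM, were higher in every hormone library, as were 1.04% of genes. The macrophage and fibroblast changes were not tested against each other.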

How the data were processed

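Single-cell suspensions of mammary gland were made into libraries with the Chromium Single Cell 3′ v3 kit, 1 library per group. Per the labels the authors used Cell Ranger 3.1.0 and the mm10 genome, and they deposited filtered UMI counts per gene and barcode, not normalized; the labels name a HiSeq and the study's methods a NovaSeq sequencer. Groups came from the treatment labels of the samples. The gene lists, gates and comparisons were chosen with earlier results of these data known.

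Barcodes under 500 genes or 1000 UMIs, or with a mitochondrial share above 5%, were dropped. A fibroblast had no UMI of 6 negative selection genes, at least 10000 CPM over 6 fibroblast markers with at least 3 detected, and under 3 markers of every other type. Other types had under 5000 CPM of fibroblast markers and at least 3 markers of their own type. Cells matching 2 types were left out and no doublet caller was run; 9666 cells stayed unnamed and 360 lay between the limits on fibroblast markers. A subset was the highest mean z-score over 8 markers, by at least 0.25 SD. Of the T cell markers, 4 were in the files.

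Counts were summed per library and population of at least 20 cells and tested with edgeR 4.0.16 (TMM, filterByExpr, quasi-likelihood, Benjamini-Hochberg over all genes tested, limit 0.05; R 4.3.3, limma 3.58.1). The hormone, P4 and PBDE contrasts used 9 libraries with PBDE level or hormone as the other factor, and contrasts between subsets, types and interferon classes used the library as a block. DESeq2 1.42.0 was an alternative, beside other scalings, filters and gates and leaving out each library. The fits were tested on simulated counts. All 10 genes are counted in every comparison and passed the filter on low counts, except Nlrc5 in the Dpp4 Pi16, Gdf10 F3 and Tnc Mfap4 cells without interferon-induced genes. Where any of the 38 other pathway genes are named, they are among the 2 with the lowest p in a direction; 1 result is not reported here. Intervals cover counting error only. Cells were thinned without replacement with a fixed seed (Python 3.11.15), and 2424 fibroblasts under 5000 UMIs were left out there. UMIs are counted by droplet, so free RNA from other cells adds to every population.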

Additional observations from a re-analysis of the deposited data

Results flagged for a closer look

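The effect of hormone differed between fibroblast subsets for 25 values, by the test of a subset's hormone contrast minus the mean of the other 3 (log2, edgeR). In Dpp4 Pi16 these were 1.02 for H2-D1, 0.97 for H2-K1, 0.95 for Nlrc5, 0.91 for Psmb9, 0.84 for Tap1, 0.68 for Psmb8, 0.50 for B2m, 0.49 for Psmb10, 0.47 for Tapbp and 0.38 for Tap2. In Tnc Mfap4 they were -1.31 for H2-D1, -1.27 for Psmb9, -1.19 for Psmb8, -1.17 for H2-K1, -0.92 for Psmb10, -0.88 for Tap1, -0.77 for Tap2, -0.72 for B2m and -0.63 for Tapbp. In Gdf10 F3 they were 0.57 for H2-D1, 0.52 for Psmb8, 0.51 for H2-K1, 0.51 for B2m, 0.50 for Psmb9 and 0.46 for Tap2. The values of a gene are tied across subsets, since each subset is part of the mean the others are set against.

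Among the 6 hormone libraries, 1 lay far from the other 5 by Dixon's test in 4 of 70 groups of values, where chance gives about 5%. VCD_E2_P4 was the highest in Dpp4 Pi16 for Psmb8 (225.0 CPM) and Psmb9 (80.61 CPM) and the lowest in Fabp4 Lpl for H2-K1 (1026 CPM), and VCD_High_PBDE_E2_P4 was the highest in Gdf10 F3 for Tapbp (246.3 CPM).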

How the results depend on the processing

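Counts are of the 10 genes called. With DESeq2 they were 1 for P4 in Dpp4 Pi16, 2 for P4 in Tnc Mfap4, 6 for high PBDE in all fibroblasts and 2 for hormone in macrophages. Per cell in place of per UMI (chosen after seeing the data, as were the gates by interferon genes and without Postn, Penk and Enpp2), hormone gave 0 in Fabp4 Lpl, 1 in Gdf10 F3 and 2 in Tnc Mfap4, and the difference between subsets 3 in Dpp4 Pi16, 3 in Fabp4 Lpl, 0 in Gdf10 F3 and 3 in Tnc Mfap4. Per cell, these Tnc Mfap4 values changed sign where 1 of the fits called the gene: for hormone B2m 0.73, H2-K1 0.27, Psmb10 0.39, Psmb8 0.19, Psmb9 0.17, Tap1 0.78, Tap2 0.33 and Tapbp 0.41, and for the difference between subsets B2m 0.13, Tap2 0.07 and Tapbp 0.21; Nlrc5, called in neither fit, changed sign too (0.96 and 0.09), and the median of all genes was 1.03 for hormone and 0.84 for the difference there. In cells with 4 or more interferon-induced genes hormone gave 1 in Dpp4 Pi16 and Nlrc5 was at -0.19, and in cells with none 0 in Dpp4 Pi16 and 0 in Gdf10 F3, where Tap1 was at -0.03. Without Postn, Penk and Enpp2 in the gate, the difference between subsets gave 3 in Gdf10 F3. With the file code as a term hormone gave 3 in Dpp4 Pi16, 0 in Fabp4 Lpl, 1 in all fibroblasts and 0 in Gdf10 F3 (medians of the 10 of 0.62, -0.01, 0.22 and 0.47; 1.67%, 4.04%, 5.35% and 0.307% of all genes called), and without the PBDE block 5 in Dpp4 Pi16, 0 in Fabp4 Lpl and 0 in all fibroblasts (0.60, -0.03 and 0.22; 7.28%, 7.67% and 14.5%). The medians as reported were 0.61, -0.01, 0.23 and 0.44. Stricter gates gave 0 for hormone in Fabp4 Lpl and 4 for Gdf10 F3 against the other subsets, and no filter on low counts gave 5 for hormone in Gdf10 F3 and 6 in macrophages (4.47% and 2.06% of all genes called, 3.21% and 0.257% with the filter). Among the contrasts of subsets, the 3 libraries without hormone (chosen after seeing the data) gave 4 calls in Dpp4 Pi16, 1 in Tnc Mfap4 and 4 in Gdf10 F3, and these values changed sign: in Dpp4 Pi16 H2-K1 -0.30, Nlrc5 -0.33, Tap1 -0.22, Tapbp -0.01 and Tap2 -0.03, in Tnc Mfap4 H2-D1 0.11, Tap1 0.04, Tap2 0.08 and Tapbp 0.06, and in Gdf10 F3 B2m -0.27; in the 6 with hormone H2-D1 in Dpp4 Pi16 was at 0.48, and Gdf10 F3 gave 6 calls. The cause of these shifts was not tested.

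Leaving out 1 library in turn, hormone gave 3 to 8 calls in Dpp4 Pi16 (3 without VCD_Low_PBDE), 0 to 1 in Fabp4 Lpl, 2 to 5 in all fibroblasts (2 without VCD_Low_PBDE), 0 to 3 in Gdf10 F3 (0 without VCD_Low_PBDE), 0 to 3 in macrophages (3 without VCD_Vehicle), 0 in T cells and 7 to 8 in Tnc Mfap4. The difference between subsets gave 8 to 10 in Dpp4 Pi16, 0 in Fabp4 Lpl, 1 to 6 in Gdf10 F3 (1 without VCD_High_PBDE) and 9 in Tnc Mfap4. The contrast of subsets gave 6 to 8 in Dpp4 Pi16, 4 to 5 in Fabp4 Lpl, 0 to 4 in Gdf10 F3 (0 without VCD_Low_E2_P4) and 10 in Tnc Mfap4. For hormone, the share of all genes called ran from 1.76% to 12.5% in Dpp4 Pi16 and from 0.244% to 4.44% in Gdf10 F3. The medians of the 10 ran from 0.53 to 0.70 and from 0.36 to 0.49. For the difference between subsets, the shares were 8.06% to 18.5% and 0.904% to 3.71%. No share is given for the contrast of subsets. In Dpp4 Pi16, Tap1, Psmb9 and Nlrc5 were called in 9 of 9 such fits of hormone, H2-K1, H2-D1 and B2m in 8, Psmb8 in 6 and Psmb10 in 4. Of the single-gene values under all alternatives, 24 changed sign where 1 of the fits called the gene and 84 where neither did, 2404 kept sign and call, 59 gained a call and 166 lost one. All genes called for hormone in Dpp4 Pi16 numbered 1469, 921 without the PBDE block and 223 with the file code. The labels give no replicate numbers that groups share, so no fit was blocked by replicate number; contrasts of subsets, cell types and interferon classes were paired within libraries, and the hormone contrast had PBDE level as a block. Nlrc5 was under 10 CPM in every fibroblast subset sum, which limits its precision.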
